A study of Homo sapiens with 2 samples.

Results

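The proteasome genes of HepG2 cells, a human line derived from a liver tumour, were compared between cells transfected with an siRNA against SPRTN and cells transfected with a negative control siRNA. SPRTN is a protease that degrades proteins crosslinked to DNA. Both siRNAs were used at 40 nM with 24 h in the transfection mix, and RNA was isolated 72 h after the start. Polyadenylated RNA was sequenced in 1 library per group, so no difference given here has a replicate check and no test across libraries was possible. The SPRTN siRNA library held about 67100000 reads assigned to genes and the control siRNA library about 96400000. SPRTN itself was at 2.07 FPKM in the SPRTN siRNA library, against 7.81 FPKM in the control siRNA library, which is 26.5% of the control level (95% interval 23.1 to 30.4%). All cells came from the same line, and the level of a gene in such bulk RNA cannot tell fewer expressing cells from less RNA per cell.

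Members were the genes whose symbol is PSM followed by a letter from A to G and a number, together with POMP. The rule found 50 of the 60448 genes in the deposited table, under 49 symbols, because 2 gene identifiers carry the name PSMA2. They comprise 16 genes of the 20S core, 17 of the 19S regulator, 4 of the immunoproteasome or thymoproteasome, 8 assembly factors, and 5 activators and inhibitors. Levels are FPKM, a read count corrected for gene length and for sequencing depth. A log2 difference below subtracts log2(FPKM + 1) with the control siRNA from log2(FPKM + 1) with the SPRTN siRNA, so that a negative value is lower with the SPRTN siRNA, and a fold or percentage is a plain ratio of FPKM. Intervals are exact Clopper-Pearson 95% intervals on the split of a gene's reads between the libraries, and they cover counting error only.

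The proteasome degrades proteins that carry ubiquitin chains. Its barrel-shaped 20S core is a stack of rings of alpha subunits, which gate the entrance, and of beta subunits, which include the proteolytic sites. The 19S regulator caps the barrel, binds ubiquitin chains, removes them and unfolds the substrate with a ring of ATPases. Dedicated chaperones build both parts and leave the finished particle, and interferon replaces the catalytic beta subunits with those of the immunoproteasome. In liver cells the assembly factor PSMD10, also called gankyrin, is known as an oncoprotein that is abundant in hepatocellular carcinoma.

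The siRNA guide strand is shown first with its 3' UTR target in SPRTN and its 3' UTR sites in 5 members. The SPRTN target lies in the 3' UTR of 1 of the 3 annotated coding transcripts that have a 3' UTR. PSMD10, PSMG3 and PSMB2 are 3 of the 4 members farthest below 0, PSMA2 has the longest pairing, and PSMG4 holds sites and was higher. Sites in PSMA4, PSMA5, PSMA6, PSMC6, PSMD9 and PSME3 are not printed, and neither are the shorter matches TGGTTA and TGGTTAA elsewhere in the 3' UTR of SPRTN. The guide strand is the reverse complement of the sense strand given with the study, and its seed (bases 2 to 8) is in capitals. In the 19-base sites, read from GENCODE release 29 transcripts of GRCh38 in the sense of the mRNA, capitals mark the unbroken run of bases that pairs within guide bases 1 to 8.
siRNA guide strand: uUAACCAGaacuuccugac
SPRTN, chr1:231353422-231353440, plus strand: gtcaggaagttCTGGTTAA
PSMD10, chrX:108084724-108084742, minus strand: tatattgaattCTGGTTAA
PSMG3, chr7:1567531-1567549, minus strand: agactcttactCTGGTTAc
PSMB2, chr1:35603170-35603188, minus strand: actcttgataaaTGGTTAA
PSMB2, chr1:35601847-35601865, minus strand: gtggatgttttgTGGTTAA
PSMA2, chr7:42917280-42917298, minus strand: gtcaggcaatttTGGTTAA
PSMG4, chr6:3291649-3291667, plus strand: acagtttctccaTGGTTAA
PSMG4, chr6:3291690-3291708, plus strand: ttgaaaatatcaTGGTTAA
PSMD10 holds the full 8-base site CTGGTTAA, PSMG3 the 7-base site CTGGTTA, and PSMB2, PSMA2 and PSMG4 the other 7-base form, TGGTTAA, which lacks the pair at guide base 8. The PSMA2 site pairs with 16 of the 19 guide bases, and counted from 1 at the 5' end of the SPRTN target it differs by A7C, G9A and C12T.

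Of the 50 members, 47 had a mean FPKM of at least 1 over the 2 libraries and are called measured. The filter left out the second PSMA2 identifier, the testis subunit PSMA8, listed at 0 FPKM in both libraries, and the thymus subunit PSMB11, at 0 FPKM in the SPRTN siRNA library and 0.00491 FPKM in the control siRNA library. PSMA2 passed only through the control siRNA library. The 47 measured genes had a median log2 difference of -0.13, against -0.05 for all 13203 measured genes. Of the 47, 32 lay below 0, which is 68.1%, where 56.6% of all measured genes lay below 0. At least 1.5-fold lower on the log2(FPKM + 1) scale were 4 members (PSMD10, PSMB2, PSMD2 and PSMG3), or 8.51% of those measured, where 5.62% of all measured genes were. At least 1.5-fold higher were 0 members, where 5.04% of all genes were. PSMD10 alone was at least 2-fold lower, where 0.788% of all genes were, and 0 members were at least 2-fold higher, where 1.51% of all genes were.

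**Figure D1:**
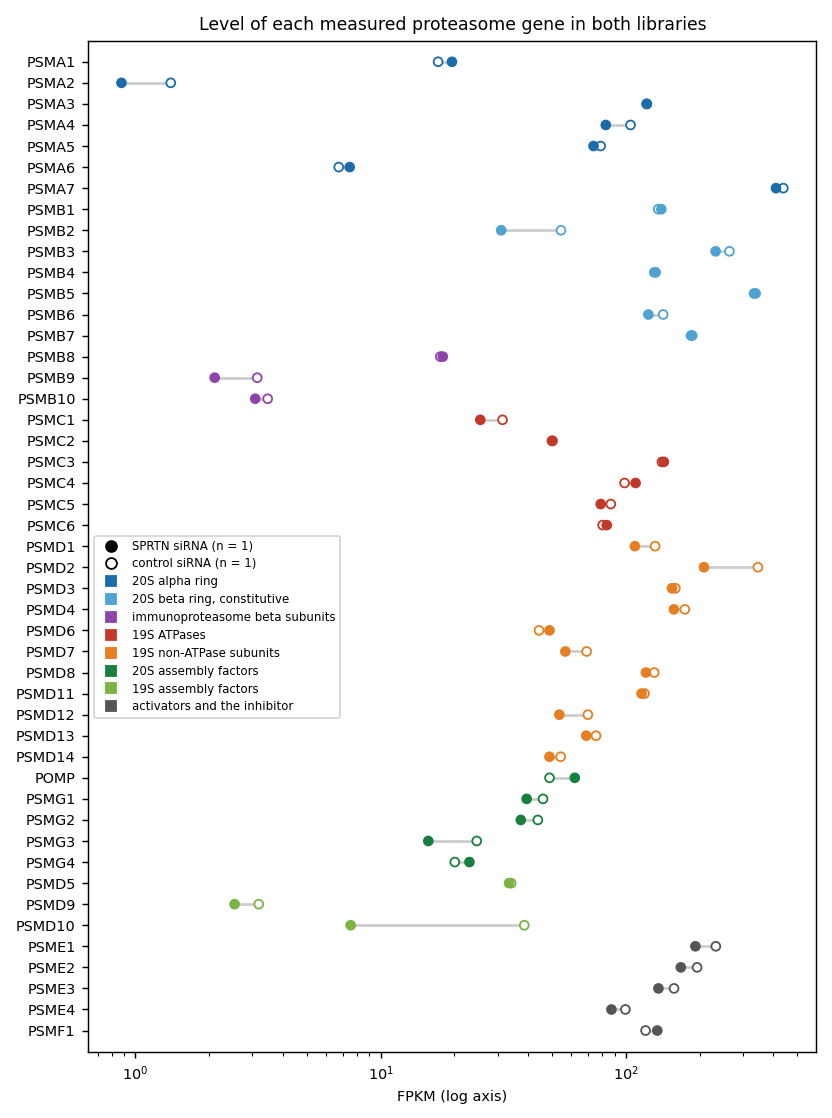
FPKM on a log axis for the 47 measured proteasome genes in the SPRTN siRNA library (filled) and the control siRNA library (open), 1 library each, coloured by class. Most pairs of points lie close together, and the widest gap is that of PSMD10, at 7.55 FPKM with the SPRTN siRNA and 38.5 FPKM with the control siRNA.

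PSMD10, which holds on to a 19S ATPase while the base of the regulator is assembled, stood apart from all other members. Its level was 7.55 FPKM from 451 reads in the SPRTN siRNA library, against 38.5 FPKM from 3312 reads in the control siRNA library. That is 5.11-fold lower (interval 4.63 to 5.65) with a log2 difference of -2.21, the second lowest of all 13203 measured genes. The gene lies on chromosome X from 108084207 to 108091618 on the minus strand. Its 8-base site lies in the 3' UTR of 2 of the 5 annotated coding transcripts that have a 3' UTR, and 12 of its 19 bases pair with the guide. The other factors of 19S base assembly differed far less. PSMD5 was at 33.4 FPKM in the SPRTN siRNA library and 34.1 FPKM in the control siRNA library, and its interval for the ratio held equality (92.8 to 104%). PSMD9 was low in both libraries, at 2.54 and 3.18 FPKM in SPRTN siRNA and control siRNA (1.26-fold lower, interval 1.08 to 1.46).

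The factors that assemble the 20S core went different ways. PSMG3, which works as a dimer with PSMG4 on the alpha ring, was at 15.6 FPKM in the SPRTN siRNA library and 24.7 FPKM in the control siRNA library, from 1109 and 2514 reads. It was 1.58-fold lower (1.47 to 1.69), with a log2 difference of -0.62, and 4.63% of measured genes were as low or lower. Its partner PSMG4 was higher, at 23.0 FPKM in the SPRTN siRNA library and 20.1 FPKM in the control siRNA library (115% of control, 108 to 121%). The dimer partners PSMG1 and PSMG2, which start the alpha ring, had similar ratios, at 85.8% (81.9 to 89.8%) and 85.2% (80.4 to 90.4%) of control. POMP, which guides the beta subunits into place and is degraded inside the finished core, had the highest log2 difference of all measured members, 0.34. It was at 61.9 FPKM in the SPRTN siRNA library, against 48.8 FPKM in the control siRNA library (127% of control, 122 to 131%). Over the 8 assembly factors the median log2 difference was -0.22, with a range of -2.21 to 0.34. Below 0 were 6 of the 8, where 56.6% of all measured genes were.

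The alpha and beta rings of the 20S core had a median log2 difference of -0.05 over 14 measured genes, or -0.095 without the 3 that share most coding bases with another gene, with 7 of the 14 below 0 and 7 above, and their FPKM summed to 1900 with the SPRTN siRNA and 2015 with the control siRNA. PSMB2, a beta subunit without a proteolytic site, was the exception. It was at 31.0 FPKM from 5579 reads in the SPRTN siRNA library and 54.4 FPKM from 14062 reads in the control siRNA library, 1.75-fold lower (1.70 to 1.81). Its log2 difference was -0.79, and 2.22% of measured genes were as low or lower. The 3 catalytic subunits differed little. PSMB5, with the chymotrypsin-like site, was at 338 FPKM in the SPRTN siRNA library and 333 FPKM in the control siRNA library (101% of control, 99.6 to 103%). PSMB7, with the trypsin-like site, was at 187 and 184 FPKM in SPRTN siRNA and control siRNA (101%, 98.4 to 104%). PSMB6, with the caspase-like site, was at 124 FPKM in the SPRTN siRNA library and 142 FPKM in the control siRNA library (87.0%, 84.2 to 89.9%). Of the structural beta subunits, PSMB1 had the highest log2 difference of its ring (0.04) and PSMB3 was at 87.8% of control (85.5 to 90.1%).

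The alpha ring ran from PSMA1, with a log2 difference of 0.18, to PSMA2, with -0.35. PSMA2 was at 0.876 FPKM from 102 reads in the SPRTN siRNA library and 1.39 FPKM from 233 reads in the control siRNA library, or 62.9% of control (49.4 to 79.8%). PSMA4 was at 79.3% of control (76.8 to 81.8%), from 82.9 FPKM in the SPRTN siRNA library and 104.5 FPKM in the control siRNA library. PSMA7, the alpha subunit with the highest FPKM, was at 409.8 FPKM in the SPRTN siRNA library and 439 FPKM in the control siRNA library. PSMA3 was almost equal in both, at 121.8 and 121.6 FPKM in SPRTN siRNA and control siRNA.

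PSMA1, PSMA2 and PSMA6 were listed far below the other alpha subunits in both libraries, although the ring holds all of them. In GENCODE release 29, 96.7% of the coding bases of PSMA2, 88.7% of those of PSMA1 and 70.0% of those of PSMA6 lie inside exons of another gene on the same strand. The same holds for 58.5% of PSMB10 and 58.9% of PSMD9. The FPKM of these 5 genes lay between 0.876 and 19.5 in the SPRTN siRNA library and between 1.39 and 17.2 in the control siRNA library. PSMB9, with no shared coding bases on its strand, lay in the same range. The 28 subunits of the 20S core and the 19S regulator with less than 50% shared coding bases had medians of 112.8 FPKM in the SPRTN siRNA library and 120.4 FPKM in the control siRNA library. Reads in shared exons cannot be given to either gene without a rule, and which rule was used is not stated for these data. The level of these 5 genes is therefore uncertain, and its part in their ratios was not tested. PSMC1 shares 47.8% of its coding bases with NRDE2 on the opposite strand and PSMD7 28.2% with another gene, and the sources used here do not give whether strand was used in counting.

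**Figure D2:**
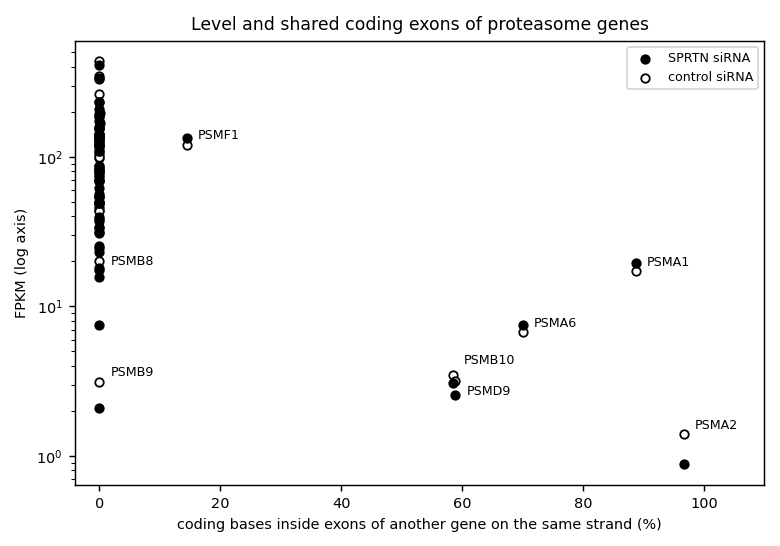
FPKM on a log axis of the 47 measured proteasome genes in the SPRTN siRNA library (filled) and the control siRNA library (open), against the percentage of their coding bases that lie in exons of another gene on the same strand. The 5 genes with more than 50% shared bases lie at or below 19.5 FPKM in both libraries.

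In the 19S regulator the lid and base subunits without ATPase activity were lower more often than the ATPases. Of the 11 non-ATPase subunits 10 had a log2 difference below 0, with a median of -0.15. Of the 6 ATPases 3 were below 0, with a median of 0.01, where 56.6% of all measured genes lay below 0. No test of this difference was possible. PSMD2, a large scaffold that docks ubiquitin receptors, was the farthest from 0. It was at 208 FPKM from 14062 reads in the SPRTN siRNA library, against 346 FPKM from 33563 reads in the control siRNA library, and was 1.66-fold lower (1.63 to 1.69). Its log2 difference was -0.73, its rank from the lowest 396 among the 13203 measured genes. PSMD12 was at 76.5% of control (74.0 to 79.1%), PSMD7 at 81.9% (78.6 to 85.2%) and PSMD1, the other large scaffold, at 82.6% (80.7 to 84.6%). PSMD14, the deubiquitinase that removes the chain, was at 48.8 FPKM in the SPRTN siRNA library and 54.2 FPKM in the control siRNA library (90.0%, 87.2 to 92.9%). The ubiquitin receptor PSMD4 was at 90.2% of control (87.7 to 92.7%). PSMD6 alone among the 11 was higher, at 110.4% of control (106 to 115%). Among the ATPases the range ran from PSMC1, at 81.1% of control (77.2 to 85.2%), to PSMC4, at 111% (108 to 114%). Summed over the 17 subunits the FPKM was 1633 with the SPRTN siRNA and 1862 with the control siRNA, or 87.7% of control, and without PSMD2 it was 93.9%.

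**Figure D3:**
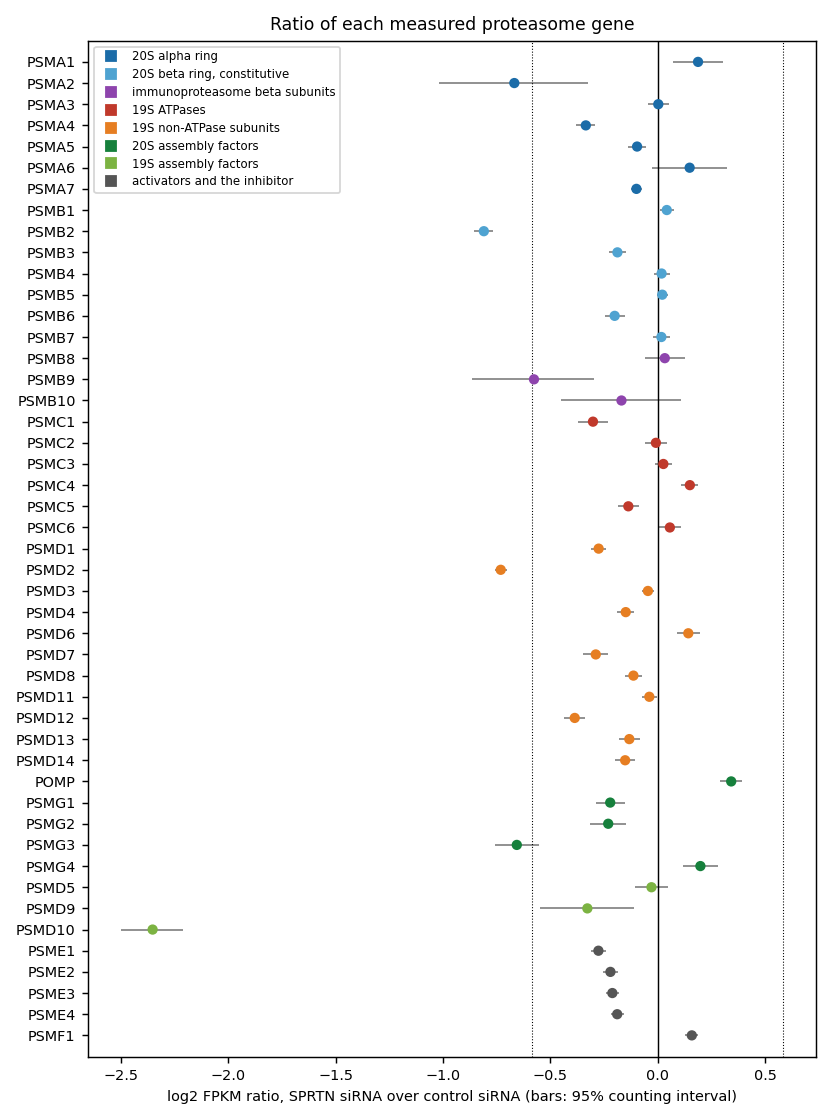
Log2 ratio of FPKM, SPRTN siRNA over control siRNA, for the 47 measured proteasome genes, with bars for the 95% counting interval, coloured by class; dotted lines mark 1.5-fold in either direction. PSMD10 lies farthest to the left at 5.11-fold lower, PSMB2, PSMD2, PSMA2 and PSMG3 follow, and POMP lies farthest to the right at 127% of control.

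Of the immunoproteasome subunits PSMB8 had the highest FPKM in both libraries, and on the log2(FPKM + 1) scale none of the 3 measured was at least 1.5-fold different. PSMB8, which takes the place of PSMB5, was at 17.9 FPKM in the SPRTN siRNA library and 17.5 FPKM in the control siRNA library (102% of control, 95.9 to 109%). PSMB9, which takes the place of PSMB6, was at 2.10 FPKM from 153 reads in the SPRTN siRNA library and 3.14 FPKM from 328 reads in the control siRNA library (67.1%, 55.0 to 81.5%). PSMB10, which takes the place of PSMB7, was at 3.08 and 3.46 FPKM in SPRTN siRNA and control siRNA (89.0%, 73.1 to 108%). PSMB8 and PSMB9 lay well below their constitutive counterparts in both libraries, and so did PSMB10, whose level is uncertain because of its shared coding bases. The interferon-inducible activator subunits PSME1 and PSME2, which open the barrel in place of the 19S cap, were abundant by comparison. PSME1 was at 192 FPKM in the SPRTN siRNA library and 233 FPKM in the control siRNA library (82.6%, 80.7 to 84.5%), and PSME2 at 168 and 195 FPKM in SPRTN siRNA and control siRNA (85.8%, 83.7 to 88.0%). The nuclear activator PSME3 was at 86.4% of control (84.5 to 88.2%) and PSME4, a large single-chain activator, at 87.7% (85.9 to 89.6%). PSMF1, named as an inhibitor of the core, was higher, at 134 FPKM in the SPRTN siRNA library and 120.4 FPKM in the control siRNA library (112%, 109 to 114%).

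Genes of antigen presentation and of the interferon signal were listed beside the immunoproteasome. Of 15 genes of MHC class I antigen presentation, 5 had a log2 difference below 0 and 10 above, with a median of 0.09. On the log2(FPKM + 1) scale 0 were at least 1.5-fold different. Of all measured genes, 56.6% lay below 0, 5.62% were at least 1.5-fold lower and 5.04% at least 1.5-fold higher. HLA-F (0.58) and the peptide-trimming enzyme gene ERAP2 (-0.53) were farthest from 0. HLA-F was at 2.29 FPKM in the SPRTN siRNA library and 1.20 FPKM in the control siRNA library, a plain ratio of 1.91 (1.48 to 2.48). Of 9 genes of the interferon signal, 7 were below 0, where 56.6% of all measured genes were, with a median of -0.16. IRF1 (0.35) and JAK2 (-0.32) were farthest from 0. Blood cells express the immunoproteasome constitutively, and of their 10 markers PTPRC, MS4A1 and HLA-DRA were listed at 0 FPKM in both libraries. LYZ made up nearly all of the list's sum, at 1294 FPKM in the SPRTN siRNA library and 1368 FPKM in the control siRNA library. The hepatocyte and hepatoblastoma markers were all expressed, between 151 and 16435 FPKM in the SPRTN siRNA library and between 134 and 13035 FPKM in the control siRNA library. Their median log2 difference was 0.25, and 2 of the 10 were at least 1.5-fold higher, where 5.04% of all measured genes were. These were TTR at a ratio of 2.32 and ALB at a ratio of 1.64. The 8 endothelial markers summed to 14.3 FPKM in the SPRTN siRNA library and 7.55 FPKM in the control siRNA library, with TEK at 0 in both. Of the 5 measured, 3 were at least 1.5-fold higher, where 5.04% of all measured genes were. CDH5 was at 2.74 FPKM in the SPRTN siRNA library and 0.439 FPKM in the control siRNA library, 6.23-fold higher (4.97 to 7.95). It passed the filter only through the SPRTN siRNA library, where it was higher, so its place among the 3 partly follows from the filter. LYVE1 was 2.97-fold higher (2.50 to 3.53) and ENG 2.54-fold higher (2.18 to 2.96). TIE1 went the other way, at 1.07 FPKM in the SPRTN siRNA library and 1.84 FPKM in the control siRNA library. Its ratio was 0.58 (0.45 to 0.75). PECAM1, at a ratio of 1.18, had an interval that held equality (0.995 to 1.40). The 8 fibroblast and stellate cell markers summed to 25.5 and 22.8 FPKM in SPRTN siRNA and control siRNA, with DCN and COL3A1 at 0 in both. Of the 3 measured, ACTA2 was at 15.9 and 12.8 FPKM in SPRTN siRNA and control siRNA, a ratio of 1.24 (1.14 to 1.36). PDGFRB was at 8.49 and 8.15 FPKM in the same order. COL1A1 was lower, at 1.02 and 1.80 FPKM, a ratio of 0.57 (0.43 to 0.74). The part of these markers in the proteasome values was not tested.

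Guide-seed sites were looked up in the 3' UTRs of all 47 measured members and of 11131 measured protein-coding genes with a 3' UTR. An siRNA can lower transcripts that pair only with its seed, as a microRNA does. A site of 7 or 8 bases was held by 9 members (19.1%) and by 19.2% of all these genes. Of the 4 members at least 1.5-fold lower, 3 held such a site, and of the 593 genes at least 1.5-fold lower 299 did (50.4%). PSMD10 was the only member with the 8-base site, and it had the lowest log2 difference of all 384 measured genes with that site, whose median was -0.33. PSMG3 was the only member with the 7-base site CTGGTTA, and 83 of the 781 genes with that site as their longest were as low or lower (median -0.20). The site TGGTTAA was held by 7 members, with a median of -0.21, and by 968 genes, also with a median of -0.21. Of these 7, PSMB2 was the lowest, with 36 of the 968 genes as low or lower, and PSMG4 the highest at 0.19. PSMB2 and PSMG4 each hold the site at 2 positions. Each PSMB2 site lies in 2 of the 2 annotated coding transcripts with a 3' UTR, and each PSMG4 site in 1 of 7. The site of PSMC6, at 0.06, lies in 1 of 3, and that of PSMA5, at -0.09, in 1 of 1. An FPKM per gene does not tell these transcripts apart. The 36 members with no match of 6 bases or more had a median of -0.12, against -0.01 for all 7539 such genes, and PSMD2 was the lowest of them. Sites thus went with lower values in some members and not in others, and their part in each value was not tested.

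**Figure D4:**
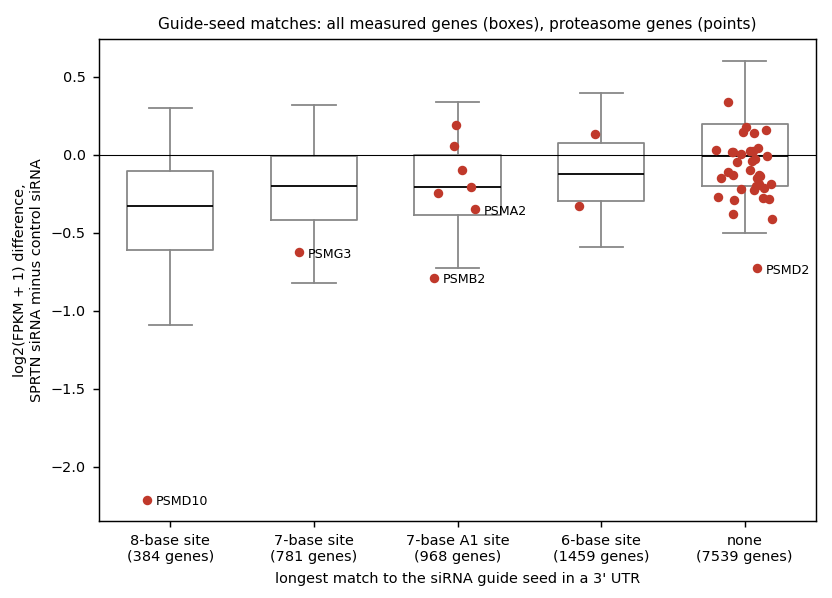
Log2(FPKM + 1) difference, SPRTN siRNA minus control siRNA, by the longest match to the guide seed in a 3' UTR. Boxes show the median, the quartiles and the 5th to 95th percentiles of all measured protein-coding genes, and points show proteasome genes; PSMD10 at -2.21 lies below the whisker of the 384 genes with the 8-base site.

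Coding sequences were searched for the same sites. PSMD2 held CTGGTTA in its coding sequence, as did PSMA1, PSMB4 and PSME4, and PSMD12 and PSME2 held the 8-base site there. The log2 differences were -0.73 for PSMD2, -0.38 for PSMD12, -0.22 for PSME2, -0.19 for PSME4, 0.02 for PSMB4 and 0.18 for PSMA1. TGGTTAA was the longest coding match of PSMG1 (-0.22), PSMA7 (-0.10) and PSMA6 (0.13). TGGTTA was that of PSMB9 (-0.41), PSMA4 (-0.33), PSMD1 (-0.27) and PSMG2 (-0.23). Among all measured genes with no 3' UTR match, the 98 with the 8-base site in the coding sequence had a median of -0.19. The median was -0.16 for the 322 with CTGGTTA, -0.18 for the 213 with TGGTTAA and -0.11 for the 587 with TGGTTA. For the 6319 with no match it was 0.01. The 25 members with a match in neither place had a median of -0.04, with 0 at least 1.5-fold lower, where 2.41% of all such genes were.

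Pairing beyond the seed set PSMA2 apart from the other members. A stretch that pairs with at least 16 of the 19 guide bases was found in the transcripts of 23 of 58660 annotated genes, SPRTN included, and 10 of these were measured. Of the 10, 8 had a log2 difference below 0, where 56.6% of all measured genes did, and 2 were at least 2-fold lower, where 0.788% were. Both counts include SPRTN, the intended target, and the first includes PSMA2, which passed the filter only through the control siRNA library. PSMA2 was the only proteasome gene among the 10. Its site lies in the 3' UTR of 1 of the 2 annotated coding transcripts that have a 3' UTR.

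Promoters of proteasome genes often carry the antioxidant response element, to which the transcription factor NFE2L1 binds when proteasome activity is short. RefSeq promoters of GRCh38.p14, from 250 bases before to 50 after the start, were matched by symbol to 43 of the 49 gene symbols. The element's core, TGACNNNGC on either strand, lay in the promoters of 15 of these 43 genes (34.9%), against 16.1% of all 27305 promoters searched by symbol and 19.9% of those of measured genes. The 15 genes with it had a median log2 difference of -0.22 (-0.41 to 0.15), and the 26 measured genes without it -0.02 (-2.21 to 0.34). The same split was not made over all measured genes. Guide sites occur on both sides of it, as in PSMD12 and PSME2 with the element and in PSMD10 and PSMB2 without it. Their part in the 2 medians was not tested. A match of these letters is a description of the window and not of binding.

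NFE2L1 itself was at 256 FPKM in the SPRTN siRNA library and 238 FPKM in the control siRNA library (log2 difference 0.11). Of the 11 measured genes of its pathway, 2 were at least 1.5-fold lower, where 5.62% of all measured genes were, and 0 at least 1.5-fold higher, where 5.04% were. These 2 were SEL1L, a part of the ubiquitin ligase complex of the endoplasmic reticulum, at 29.4 FPKM in the SPRTN siRNA library and 78.9 FPKM in the control siRNA library, and DDI2, the protease that activates NFE2L1, at 20.7 and 35.7 FPKM in SPRTN siRNA and control siRNA. Both hold the 8-base guide site in a 3' UTR, as do ZFAND5 and TXNL1 among the proteasome-bound proteins, at 0.05 and 0.10. NFE2L2, the factor of the antioxidant response, was the highest of the pathway at 0.57.

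Other proteins that bind the proteasome differed less. Of 12 measured genes, 6 were below 0 and 6 above, with a median of -0.02 and 0 at least 1.5-fold different. Of all measured genes, 56.6% lay below 0, 5.62% were at least 1.5-fold lower and 5.04% at least 1.5-fold higher. The ubiquitin ligase gene UBE3C (0.42) and PAAF1, another factor of 19S assembly (-0.29), were farthest from 0, while the ubiquitin receptor ADRM1 was at 100.2 FPKM in the SPRTN siRNA library and 91.4 FPKM in the control siRNA library. Of 11 shuttle factor, ubiquitin and ubiquitin-activating genes, 7 were below 0, where 56.6% of all measured genes were, with a median of -0.11. The shuttle factor RAD23B, at -0.35, was farthest from 0. Proteins that gankyrin is known to bind were encoded by 5 measured genes, with a median of -0.30. All 5 were below 0, where 56.6% of all measured genes were. The tumour suppressor RB1 was at 20.2 FPKM in the SPRTN siRNA library and 30.1 FPKM in the control siRNA library (log2 difference -0.55), and MDM2 was at -0.34. RHOA, at -0.30, holds no guide site in a 3' UTR, and the other 4 hold one of 7 or 8 bases.

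The authors' deposited table calls 1 member, PSMD10, with a log2 fold change of -2.35, where it calls 12.5% of all genes it tests, 3.32% as lower. Of 48 members with an adjusted p in the authors' deposited table, 39 (81.3%) are below 0.05, against 65.8% of all genes. These p-values set 1 library against 1 library by a method that is not stated for these data, and in the authors' deposited table the adjusted p of PSMD3 is 0.00112 at a log2 fold change of -0.05. The recovered reads gave 29 of the 47 measured members an interval wholly below equality, where 44.3% of all genes with reads had one. For 8 it lay wholly above, where 31.5% did, and for 10 it held equality. Such counts depend on the reads per gene as well as on the size of a difference. Measured members had median FPKM of 79.0 with the SPRTN siRNA and 80.4 with the control siRNA, against 13.9 and 14.9 for all measured genes. The part of these levels in the counts was not tested.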

How the data were processed

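The authors deposited a table of FPKM per gene, and its title speaks of row means without saying of what. The authors' second deposited table holds length-scaled coverage, a signal not corrected for depth and not used for values here, with the authors' log2 fold change and p-values. Per the submitters' processing notes GRCh38.p13 was the build and edgeR was among the tools. The role of edgeR, the aligner, the counter, the annotation release and the use of strand are not stated for these data. Columns were matched to samples by their short names, of which 1 begins with si.

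Reads were recovered from FPKM times the mean transcript length of GENCODE release 29, which has a length for 94.1% of genes. Of values up to 20 reads, 93.3% with the SPRTN siRNA and 93.9% with the control siRNA lay within 0.05 of a whole number. Differences used log2(FPKM + 1) over genes whose mean FPKM was 1 or more; the plan's count version was not needed. With 1 library per group, members were counted by size (1.5-fold and 2-fold), with no test. Named genes were PSMD10, members at least 1.5-fold different, the extremes of each class and the 2 members of each further list farthest from 0. NFE2L1, ADRM1, SPRTN, the cell type markers named and members named for their role or sites were chosen after their values were seen. A gene that this rule takes is not reported here, but it remains in all counts and medians. Members, classes and lists were chosen with earlier results of these data known. Python 3.11.15, pandas 2.3.3 and SciPy 1.17.1 were used. Alternatives were a pseudocount of 0.1, no filter, a mean FPKM of at least 5, 2 other scalings, recovered reads with TMM scaling and leaving out genes with shared coding bases, the last chosen after seeing the data. Read recovery, the intervals, TMM scaling and the 2-fold calls were tested on simulated data. The searches for guide sites, shared exons and the promoter element were not.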

Additional observations from a re-analysis of the deposited data

How the results depend on the processing

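The log2 difference of PSMD10 ranged from -2.34 with a pseudocount of 0.1 to -2.16 when all differences were centred on the median gene. Between 3 members (centred, which leaves out PSMG3) and 5 (pseudocount 0.1, which adds PSMA2) were at least 1.5-fold lower, 1 was at least 2-fold lower and 0 were at least 1.5-fold higher under all 7 alternatives, of which the one that leaves out genes sharing at least 50% of their coding bases was chosen after seeing the data. Centring moved the median of all 47 members to -0.077, of the 19S regulator to -0.077 and of the activators and the inhibitor to -0.16. The median of the 20S core was 0.0013 with no filter on low values, 0.0026 at a mean FPKM of at least 5, 0.0077 when centred and -0.095 without the genes that share coding bases. It therefore lay on either side of 0, and the cause was not tested. No single measured gene at least 1.5-fold different changed sign. Centring turned the sign of 4 members near 0 (PSMD5, PSMD3, PSMD11 and PSMC2), and rescaling by the median of ratios or recovered reads with TMM scaling that of PSMA3. No paired analysis was possible because each group has 1 library. Depth limits PSMA2, PSMB9, PSMB10 and PSMD9, each with 489 reads or fewer in either library.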

Other observations

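Pseudogenes and antisense genes are named after proteasome members but lie outside the rule. Of 31 pseudogenes, 18 were listed at 0 FPKM in both libraries and 3 were measured, the highest being PSMA6P1 at 4.02 FPKM in the SPRTN siRNA library and 3.86 FPKM in the control siRNA library. The 2 pseudogenes of PSMD10 above 0, PSMD10P1 and PSMD10P2, were at 0.131 and 0.130 FPKM in the SPRTN siRNA library and at 0.0609 and 0.0517 FPKM in the control siRNA library. These levels are too low to read a direction from. Of 5 antisense genes named after members, PSMA3-AS1 was the highest, at 22.4 FPKM in the SPRTN siRNA library, with a log2 difference of 0.16.

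Among the measured genes with a stretch that pairs with 16 of the 19 guide bases was SLBP, the histone mRNA binding protein, which has no match of 6 bases or more to the seed in a 3' UTR. It was at 25.3 FPKM in the SPRTN siRNA library and 70.3 FPKM in the control siRNA library. The log2 differences of the genes in that set other than SPRTN ran from -1.44 for SLBP to 0.48 for PAX6, with PSMA2 at -0.35.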
